A study of Mus musculus with 112 samples.

Results

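The regions of mouse chromosome 13 at which cytosine methylation was scored were compared between Nrf2-/- and wild type (WT) mice, in the sperm of males with or without smoke exposure (F0) and in the brain of sons of such males (F1). CpG cytosines no more than 100 bp apart were joined, and runs of 3 or more that spanned over 50 bp made a region. That gave 2702 of 62831 regions in F0 sperm and 3361 of 80920 regions in F1 brain. The sperm regions held 27667 cytosines, with a median of 6 per region and a median length of 111 bp, and 505 of them had exactly 3. The brain regions held 38829 cytosines, with a median of 5 per region and a median length of 112 bp. The chromosome was chosen by measured values, namely the excess of its regions that differed between Nrf2-/- and WT groups in F0 sperm. F0 sperm differences by genotype are therefore a description here, with no test, whereas F1 brain and the smoke comparisons did not enter the choice and were tested.

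DNA methylation (DNAme) had been profiled in 112 libraries. F0 males entered the study at 6 to 7 weeks of age. F0 sperm came from unexposed C57BL/6J males (control WT, n = 10), from males within 3 days of 60 days of cigarette smoke (CS; smoked WT, n = 9), from WT males kept for 3 lengths of time after CS (recovery groups of 9, 10 and 10), and from unexposed or CS-exposed Nrf2-/- males on a C57BL/6J background (n = 10 and n = 9). The first recovery group was taken 28 days and the third 171 days after CS. The Nrf2-/- males carry a targeted Nfe2l2 in every cell. F1 brain was prefrontal cortex of sons aged 14 to 17 weeks, with 8 sons in each of 4 groups, by sire: unexposed WT, CS-exposed WT, unexposed Nrf2-/- and CS-exposed Nrf2-/- (called control or smoked sires). All mothers were CAST/EiJ, so the sons are hybrids, and those with an Nrf2-/- father carry 1 targeted allele. The F1 sperm libraries are of sons of WT sires and enter no comparison here.

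In mammals, methyl groups are placed almost wholly on cytosines that precede a guanine (CpG). Dense CpG sequence at promoters is mostly unmethylated, whereas gene bodies, repeats and intergenic sequence are mostly methylated, and mature sperm DNA is methylated at most CpGs outside such islands. NRF2, the protein encoded by Nfe2l2 on chromosome 2, is the transcription factor that drives genes of antioxidant defence. Reduced representation bisulfite sequencing (RRBS) reads DNA cut at short recognition sites, here those of MspI (ccgg) and TaqαI (tcga). Bisulfite makes an unmethylated cytosine read as thymine, and the percent of reads that kept the cytosine is its methylation level. A cytosine that a mouse lacks in its DNA sequence is also read as unmethylated or is not read, and methylation percents alone cannot tell these cases apart.

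The following windows of the GRCm38 (mm10) reference, all on the forward strand, are shown because each holds a cytosine that was read as methylated in WT sperm and as unmethylated in Nrf2-/- sperm. The capital marks that cytosine, written as C where it lies on the forward strand and as the opposite G where it lies on the reverse strand.
Hapln1 intron, chr13:89585694-89585744: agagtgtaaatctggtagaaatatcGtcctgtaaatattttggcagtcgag
Arsb intron, chr13:93850377-93850427: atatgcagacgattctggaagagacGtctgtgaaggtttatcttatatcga
between genes near Aggf1, chr13:95409511-95409561: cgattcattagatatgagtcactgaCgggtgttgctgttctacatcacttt
between genes near Crhbp, chr13:95451316-95451366: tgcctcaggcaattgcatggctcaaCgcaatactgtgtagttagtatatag
Mast4 intron, chr13:102980915-102980965: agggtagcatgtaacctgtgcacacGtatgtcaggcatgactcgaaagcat
between genes near Mast4, chr13:103459281-103459331: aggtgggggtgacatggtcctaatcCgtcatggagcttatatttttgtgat

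A further 4 regions are shown whole, with every scored cytosine, or the G opposite it, in capitals. The regions in Iqgap2 and 2210408I21Rik held the largest fall and the largest rise among the regions named in sperm. The third held the brain region called in sons of control Nrf2-/- sires, and the fourth is the coding stretch of Zfp169 called in sons of smoked Nrf2-/- sires.
Iqgap2 intron, chr13:95818469-95818611: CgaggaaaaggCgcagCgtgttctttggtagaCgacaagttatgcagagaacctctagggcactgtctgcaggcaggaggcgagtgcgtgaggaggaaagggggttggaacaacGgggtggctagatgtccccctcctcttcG
2210408I21Rik intron, chr13:77584905-77585006: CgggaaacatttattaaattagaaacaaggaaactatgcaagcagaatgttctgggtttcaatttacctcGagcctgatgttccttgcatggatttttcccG
between genes near 1700006H21Rik, chr13:107713199-107713355: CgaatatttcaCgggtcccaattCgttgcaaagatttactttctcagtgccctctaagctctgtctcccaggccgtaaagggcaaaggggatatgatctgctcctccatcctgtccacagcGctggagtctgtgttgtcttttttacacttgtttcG
Zfp169 coding exon, chr13:48490386-48490593: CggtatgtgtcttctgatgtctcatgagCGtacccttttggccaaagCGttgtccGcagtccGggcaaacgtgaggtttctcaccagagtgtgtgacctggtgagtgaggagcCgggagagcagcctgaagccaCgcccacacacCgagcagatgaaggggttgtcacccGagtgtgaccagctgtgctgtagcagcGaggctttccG

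Several facts of the libraries bear on what follows. The tables give no read counts, so the depth behind each percent is unknown, and the number of positions with a value stands in for it. That number ran from 800578 to 1855546 in F0 sperm (median 1208256) and from 1332684 to 1711088 in F1 brain (median 1552105). Table columns could be tied to a group but not to a numbered sample, so libraries are named by their order within a group's table. In both tissues the facility numbers of Nrf2-/- libraries form 1 run and those of WT libraries another, so a handling batch and the genotype cannot be told apart. A control WT brain sample has an Nrf2-/- strain in 1 of its labels and was assigned by its title. Over 9 cytosines of chromosome 2 described below, all 16 brain libraries of WT sires had means of 72.1% to 80.8%. Those of Nrf2-/- sires had 23.2% to 35.9%. On chromosome 13 the WT level in brain is the range of these same 16 libraries, so it cannot check the label. A library is an animal by its labels, and whether sons shared a sire is not given, so p-values measure the spread between these libraries.

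Regions that differed between genotypes in F0 sperm crowded into the distal part of the chromosome. In limma's test with Benjamini-Hochberg adjustment over all regions, used here only to list regions, 35 of the 2702 regions were called in control Nrf2-/- against control WT sperm, 27 of them lower and 8 higher in Nrf2-/-. That is 1.3% of the chromosome's regions, beside 0.409% of all regions in the genome (0.301% lower and 0.108% higher). In smoked Nrf2-/- against smoked WT sperm 25 regions were called, 16 lower and 9 higher, which is 0.925% beside 0.409% genome-wide (0.162% lower and 0.247% higher). The rule used this excess, so nothing is read from it. The 2 comparisons share no library in their group means, but the test takes its spread from all F0 sperm groups together. In both, 19 regions were called with the same sign, 14 lower and 5 higher, which is a description too. The share of all regions in the genome called in both was not counted, so nothing particular to the chromosome is read from the 19. Over all chromosome 13 regions the median difference was -0.0312 points without CS and 0.0195 points with CS. Called differences ran from 2.58 to 47.6 points (median 11.7) without CS and from 5.3 to 44.2 points (median 12.4) with CS.

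In windows of 5 Mb, the one from 95 to 100 Mb held 7 called regions of 157 without CS and 5 with CS, and the one from 100 to 105 Mb held 4 of 109 without CS and 5 with CS. The windows from 80 to 85 Mb and from 85 to 90 Mb held 4 of 62 and 4 of 31 without CS, and 3 in each with CS. From 45 to 75 Mb no region was called without CS. Nrf2-/- and WT libraries did not overlap at 14 regions (0.518%, beside 0.103% of all regions) without CS and at 13 (0.481%, beside 0.142%) with CS, and 13 and 11 of these lay in the stretch described next.

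**Figure D1:**
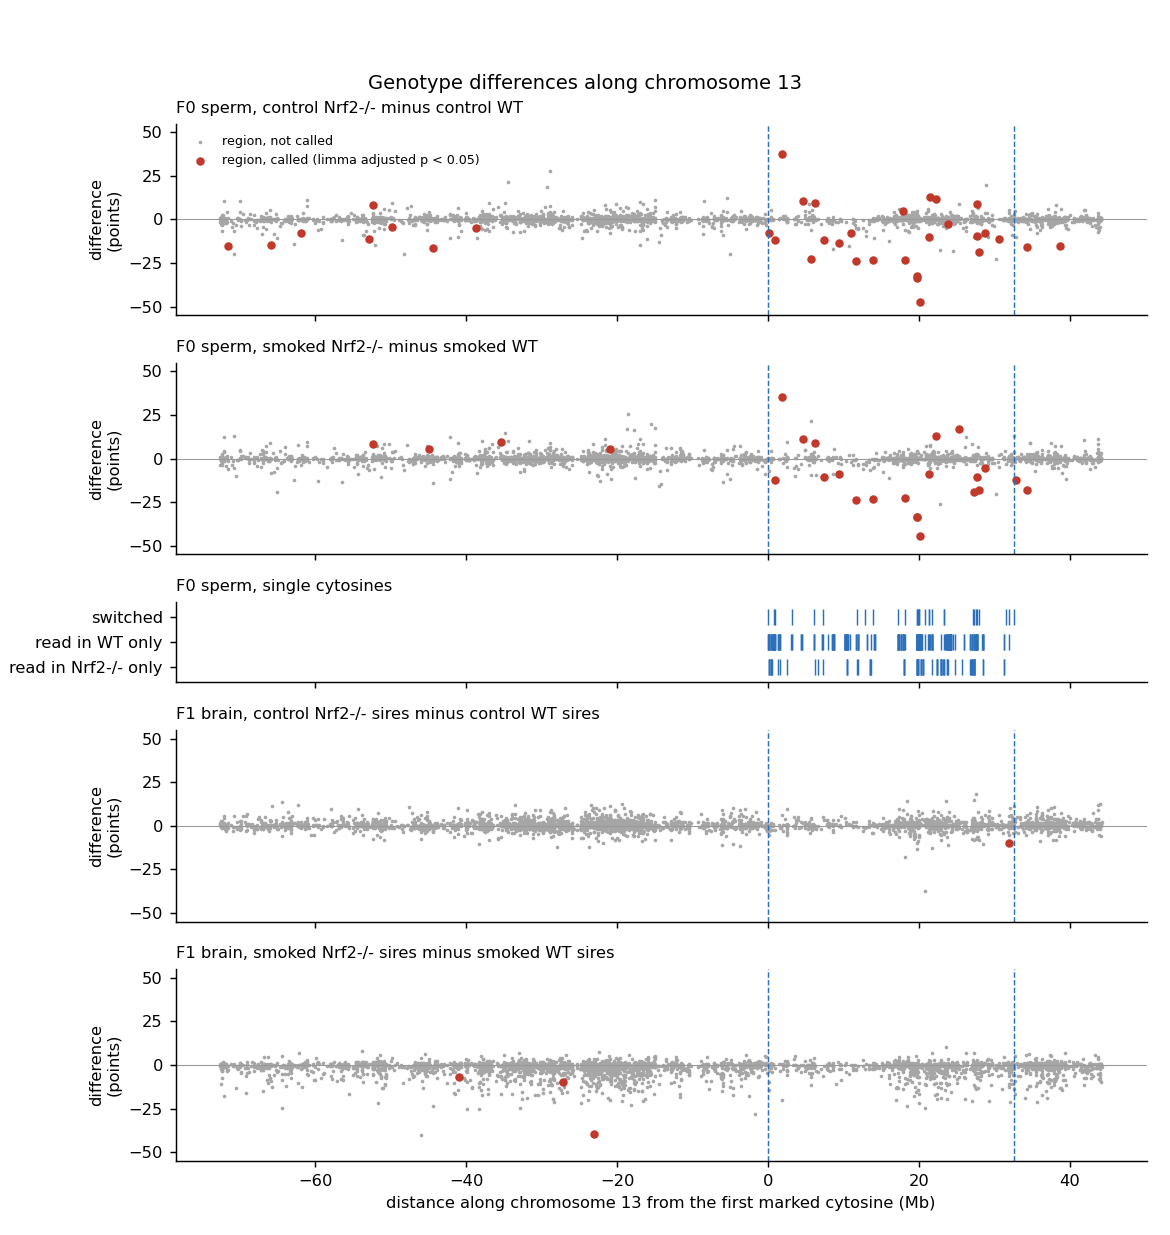
Differences in DNAme along chromosome 13, as Nrf2-/- minus WT in percentage points per region, against the distance in Mb from the first marked cytosine, for control and smoked F0 sperm (top) and F1 brain of sons of control and smoked sires (bottom). The middle panel marks single cytosines that switched or were read in 1 genotype only, dashed lines bound the block they define, and red points are called regions, of which 25 of 35 (control) and 19 of 25 (smoked) in sperm lie within the block.

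Single cytosines were read in the same libraries. A cytosine was termed switched when its mean was at least 75% in one genotype and at most 10% in the other, over at least 20 of the 48 WT and 8 of the 19 Nrf2-/- F0 sperm libraries. On chromosome 13, 29 cytosines were switched to the lower level in Nrf2-/- sperm and 1 to the higher, of 49541 read in both genotypes. All other chromosomes together had 24 and 1 of 1098360, with 12 of the 24 on chromosome 6 and 9 on chromosome 2. A further 229 positions had a value in all 48 WT libraries and in no Nrf2-/- library, 1.28% of the 17839 read in every WT library against 0.0389% on the other chromosomes. Another 80 had a value in all 19 Nrf2-/- libraries and in no WT library, of 19423 read in every Nrf2-/- library. On the other chromosomes this held for 100 of 408705. Those marks were not spread evenly either. Chromosome 2 had 140 missing positions (0.483%) and 52 read in Nrf2-/- only, and chromosome 6 had 0 and 35. On chromosome 13 the positions read in 1 genotype only fell into 133 and 52 clusters of positions at most 100 bp apart.

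All marks of chromosome 13 lay between 75741887 and 108255784, a block of 32.5 Mb or 27.0% of the chromosome. Its bounds are the outermost marks and were thus set by them. Outside it stood 37843 cytosines read in both genotypes and 13356 read in every WT library, with 0 marks by construction. The block holds 154 of the 838 protein-coding genes of the chromosome, from Ell2, which encodes a transcription elongation factor, to Elovl7, which encodes a fatty acid elongase. Of its 599 regions, 25 were called without CS (4.17%) and 19 with CS (3.17%), against 10 (0.476%) and 6 (0.285%) of the 2103 regions elsewhere on the chromosome. Leaving aside the 8 regions that held a switched cytosine, the block had 18 of 591 called without CS (3.05%) and 11 of 591 with CS (1.86%). The block was drawn by genotype marks in the same F0 sperm libraries. The contrast of inside and outside is therefore a description in either count. Inside the block, 30 of 11698 cytosines read in both genotypes were switched, and 5.11% of the 4483 positions read in every WT library were missing from Nrf2-/- sperm.

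Library means over the switched cytosines stood far apart by genotype. Over the 29 cytosines that were lower in Nrf2-/-, the library mean lay between 85.3% and 97% in the 48 WT libraries (median 94.5%) and between 0.0187% and 3.86% in the 19 Nrf2-/- libraries (median 0.229%). No library of either genotype lay between these ranges, though the choice of the cytosines fixes this in part. Single cytosines could differ from these means, and at 108255784, with a WT mean of 89.7%, columns 10 and 8 of control Nrf2-/- sperm had 95.8% and 57.1%. Missing positions had a median WT level of 92.7%, and positions read in Nrf2-/- alone had a median level of 95.2%. Of the 30 switched cytosines, 16.7% lay in a recognition site of the enzymes (ccgg or tcga), against 46.9% of the block's cytosines read in both genotypes. None lay within 1 kb of a transcription start, and the opposite strand of the CpG was read in as many libraries of both genotypes at 0 of 30. Neither count was set against the block's other cytosines. Chromosome 13 regions near a start had a median of 0.798% in control WT sperm, so a high WT level nearly kept switched cytosines from them. Near a start lay 20 of the missing positions and 9 of those read in Nrf2-/- alone. Of the missing positions, 64.2% lay in a recognition site and 26.2% in repeat-masked sequence, beside 56.2% and 15.9% of all the block's positions read in every WT library. The contrary switched cytosine, at 103301039, had 8.26% in WT and 96.3% in Nrf2-/- sperm.

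The Nrf2-/- libraries differed among themselves at the far end of the block. Between 107952133 and 108990318 lay 25 positions read in at least 40 WT and at most 3 Nrf2-/- libraries. Column 10 of control Nrf2-/- and column 3 of smoked Nrf2-/- sperm read all 25, column 8 of control Nrf2-/- read 6, and the other 16 Nrf2-/- libraries read 0. The WT libraries read 17 to 25 of them. The start of the stretch was set after seeing the data. It is the first such position near the block's end that control column 10 and smoked column 3 both read. The split between libraries is thus partly set by this choice and by the limit of 3 Nrf2-/- libraries. The stretch runs past the last mark of the block, and cytosines beyond it still separated most libraries. At 110510579, with a WT mean of 97.2%, control column 8 had 25.6%, control column 10 had 100%, smoked column 3 had 92.9%, smoked column 7 had 4.17% and the other 15 Nrf2-/- libraries had 0%. At 110461757, with a WT mean of 59.7%, control column 10 had 44%, smoked column 3 had 85.7% and the other 17 had 5.41% or less. Marks were set over all 19 Nrf2-/- libraries, so these 3 libraries bear on where the block ends, and some regions counted as outside it lie between its end and 110510579, such as the one near Pde4d described below. Of 414 such positions before this stretch, smoked column 3 read 18 and the other Nrf2-/- libraries between 0 and 7. Columns 10 and 8 of control Nrf2-/- also had the highest means at the 29 switched cytosines, 3.86% and 2.88%, which include their values at 108255784. Smoked column 3 had no value there and the lowest mean of the 19, 0.0187%. Without these 3 libraries 37 regions were called without CS and 25 with CS, an alternative chosen after seeing the data.

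The largest difference on the chromosome was a fall in an intron of Iqgap2, which encodes a scaffold protein that binds small GTPases and actin. Its 6 cytosines (95818469 to 95818611, printed above) span 143 bp. Control WT sperm had 95.1% ± 4.18 (SD, n = 10; lowest 85.5%, median 97.0%, highest 98.7%) and control Nrf2-/- sperm 47.5% ± 7.72 (n = 10; 36.2%, 47.6% and 61.3%). Smoked WT sperm had 94.8% ± 2.54 (n = 9; 90.6%, 95.6% and 97.8%) and smoked Nrf2-/- sperm 50.6% ± 7.19 (n = 9; 36.8%, 49.4% and 61.1%). The genotypes did not overlap in either comparison, and the recovery groups stood at 94.2%, 95.5% and 95.7%. The difference was -47.6 points (SE 2.27) without CS and -44.2 points (SE 2.40) with CS. Every cytosine took part, from group means of 91.5% to 99.1% in control and smoked WT to 36.8% to 62.4% in control and smoked Nrf2-/- sperm, and none was switched.

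An intergenic stretch wholly within repeat-masked sequence (87402619 to 87402722) fell in the same shared manner. Without CS, WT sperm had 77.5% ± 4.01 and Nrf2-/- sperm 53.6% ± 6.09 (n = 10 each). With CS the means were 76.3% and 52.6%, and the genotypes stood apart in both comparisons. An intron of the noncoding gene 2310067P03Rik, 373065 bp from the start of Mef2c, which encodes a neuronal and muscle transcription factor, went from 76.8% ± 2.63 to 64.9% ± 2.15 without CS and from 76.6% to 65.8% with CS, again without overlap (83130860 to 83130969). At 76370 bp from the start of Ccnh, the gene of cyclin H, a region (85112976 to 85113038) had 48.0% ± 2.98 and 34.4% ± 5.86 without CS and 46.0% and 37.3% with CS, with overlap. Its listing with CS was lost without 1 library in 13 of 18 cases.

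Rises were fewer. In the 2210408I21Rik intron (77584905 to 77585006, printed above), control WT sperm had 44.7% ± 14.02 (n = 9) and control Nrf2-/- sperm 82.1% ± 13.6 (n = 7), a rise of 37.3 points (SE 7.08). With CS the means were 52.5% ± 19.04 (n = 7) and 87.6% ± 9.34 (n = 8), a rise of 35.1 points (SE 7.27). Libraries of the genotypes overlapped in both comparisons, and those lacking most of the 3 cytosines were left out. In an intron of Arhgef28, DNAme was 65.9% in control WT and 77.3% in control Nrf2-/- sperm, and 62.9% and 75.8% with CS (98024707 to 98024857). A region 488888 bp from the start of Arrdc3 (80394431 to 80394496) had 85.6% and 96.1% without CS and 84.7% and 96.2% with CS.

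In a second kind of region a single switched cytosine fell close to 0 while its neighbours stayed methylated. The chromosome has 8 scored regions with such a cytosine, of which 7 were called without CS and 8 with CS. These cytosines were chosen by their genotype difference in the same libraries, so that choice largely fixes these calls. At 6388 bp from the start of Crhbp, the gene of the corticotropin-releasing hormone binding protein, the region 95451312 to 95451428 had 97.8% ± 0.593 (n = 10; lowest 96.6%, highest 98.8%) in control WT and 64.2% ± 0.842 (n = 10; 62.4% to 65.6%) in control Nrf2-/- sperm. With CS it had 97.4% and 64.1%. Of its 3 cytosines, the one at 95451341 went from 98% to 0.0617% without CS. A like region 34159 bp from the start of Aggf1, which encodes an angiogenic factor (95409511 to 95409626), had 95.5% and 63.0% without CS and 95.8% and 62.0% with CS. Its cytosine at 95409536 went from 96.3% to 0.0595% without CS.

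In an intron of Hapln1, which encodes a link protein of the extracellular matrix, the region 89585631 to 89585742 had 96.5% ± 1.21 in control WT and 73.1% ± 1.80 in control Nrf2-/- sperm, and 96.4% and 73.1% with CS. Its cytosine at 89585719 went from 97.2% to 2.99% without CS and from 96.9% to 1.54% with CS. In an intron of Arsb, the gene of the lysosomal enzyme arylsulfatase B, the region 93850329 to 93850426 had 96.4% ± 2.20 and 72.8% ± 0.493 without CS and 95.3% and 72.9% with CS, and its cytosine at 93850402 went from 97.3% to 0.114%. An untranslated exon of Srek1, which encodes a splicing regulator (103739613 to 103739703), had 96.1% and 77.1% without CS and 96.2% and 77.9% with CS. With the switched cytosines left out, an alternative chosen after seeing the data, the Hapln1, Arsb and Srek1 differences became 0.24, 0.96 and 0.18 points without CS, and none was called.

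Regions with a switched cytosine also lay in or near Mctp1 and Mast4. An intron of Mctp1, which encodes a membrane protein with calcium-binding C2 domains (76699193 to 76699315), fell by 11.7 points without CS and by 12.4 points with CS. The region near Mast4, which encodes a microtubule-associated kinase, lies between genes, 124765 bp from the Mast4 start (103459262 to 103459375). This region went from 79.8% to 70.0% without CS and from 78.5% to 68.1% with CS. Its switched cytosine fell while the other 3 had group means of 69.2% to 83.2% in control WT and 91.9% to 93.9% in control Nrf2-/- sperm. The cytosine printed above from the Mast4 intron lies in the region 102980823 to 102980958, which differed by -10.2 points without CS, where it was not called, and by -18.9 points with CS, where it was.

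**Figure D2:**
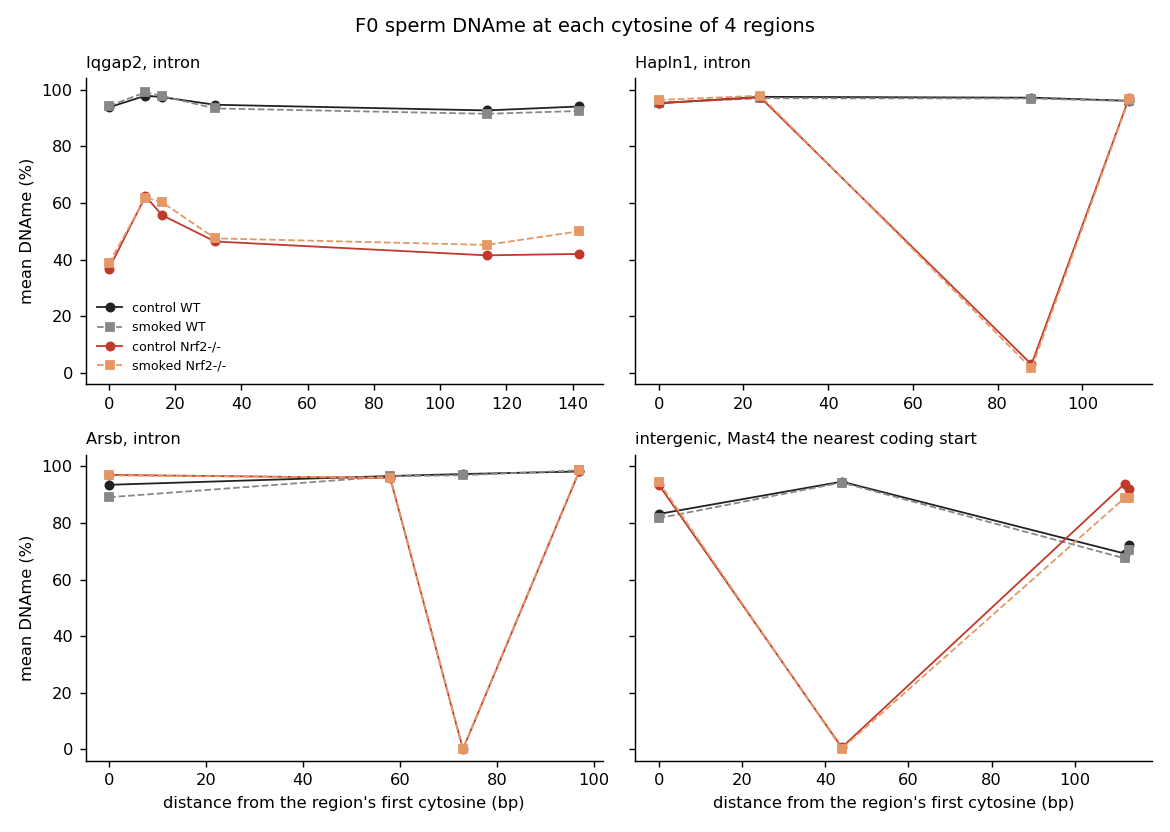
Mean DNAme in percent at each cytosine of 4 chromosome 13 regions in control and smoked WT and Nrf2-/- F0 sperm, against the distance in bp from the first cytosine of the region. All 6 cytosines of the Iqgap2 intron lie between 36.8% and 62.4% in Nrf2-/-, whereas in the Hapln1 intron, the Arsb intron and the region near Mast4 a single cytosine drops close to 0.

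Outside the block none of the 10 regions called without CS had groups that stood apart, and 2 of the 6 called with CS did. These are the region near Tspan17 described below (5.47 points) and one at 40285740 (9.38 points) in an intron of Ofcc1. The latter is not among the regions that the naming rule gives, and its values were known when it was picked. The only one listed with the same sign in both comparisons among the named regions lay 93893 bp from the start of Pde4d, the gene of a cAMP phosphodiesterase (110020737 to 110020821), in sequence 85.9% repeat-masked. It had 58.0% and 42.1% without CS and 60.9% and 43.1% with CS, with overlap. A further region outside the block was called in both comparisons, beyond the limit of 15 named regions. In an intron of C230035I16Rik (23428754 to 23428822), DNAme was higher in Nrf2-/- by 8.38 points without CS and by 8.54 points with CS, with overlap. At the threshold of the listing, the last region inside without CS was a coding exon of Fst, the gene of the activin-binding protein follistatin (114455596 to 114455719), at -15.2 points (SE 3.81), and the first outside was 59181047 to 59181203, at 8.67 points (SE 2.26). With CS the last inside was 104502119 to 104502208, at -5.5 points (SE 1.38), and the first outside was 23949123 to 23949271, at 7.01 points (SE 1.85).

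Called regions were also counted by annotation, which the rule had not used. The background was 1.3% without CS and 0.925% with CS of all the chromosome's regions, and 0.409% of all regions in each comparison. Regions within 1 kb of a transcription start gave 2 calls without CS (0.226%) and 0 with CS of 886. Intergenic regions gave 18 and 12 of 846 (2.13% and 1.42%), introns 12 and 11 of 675 (1.78% and 1.63%), and exons 3 and 2 of 295 (1.02% and 0.678%). Most of the calls came from the block, whose regions were called at 4.17% and 3.17%. There, intergenic regions gave 14 and 10 of 194 (7.22% and 5.15%), introns 8 and 8 of 150 (5.33% in each), regions near a start 2 and 0 of 193, and exons 1 and 1 of 62. The level in control WT sperm is no such class, since these values are 1 side of the genotype difference that the rule used. By that level, regions between 20% and 80% gave 14 and 10 calls of 249 (5.62% and 4.02%). Regions above 80% gave 13 and 11 of 1027 (1.27% and 1.07%), and those below 20% gave 8 and 4 of 1426 (0.561% and 0.281%). In the block these levels gave 7 and 7 of 57, 10 and 10 of 228, and 8 and 2 of 314. No difference between classes was tested.

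Gene families of the chromosome were counted through the regions in or within 10 kb of their members, beside 1.3% (without CS) and 0.925% (with CS) of all chromosome 13 regions called and 0.409% genome-wide in each comparison. The replication-dependent histones, which supply the core histones of dividing cells, had 0 of 27 regions called in either genotype comparison, with a median difference of 0.0553 points without CS. KRAB zinc fingers, many of which silence transposons, were listed by symbols starting Zfp or Rslcan, with no check for the domain. That list had 0 of 57 regions called. Serpins, prolactins and placental cathepsins, also listed by symbol, had 0 of 5, 3 and 1. Developmental transcription factors had 0 of 167, of which 29 lie in the block. Vomeronasal receptors had 1 of 9 lower without CS only, and aldo-keto reductases and other redox enzymes 1 of 24 lower without CS only. Signalling genes had 1 of 75, the Fst exon, without CS only. The neighbourhood of Iqgap2 and the thrombin receptor gene F2r, which lies in the block, had 2 of 16 lower in both comparisons, and this list was drawn around a region already known to differ. Nothing particular to a family is read from these counts, which rest on few regions.

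Few regions of the chromosome passed the test for smoke in sperm. In smoked against control WT sperm limma called 0 of 2702 regions (0.00159% of all regions), and 110 (4.07%) had an unadjusted p under 0.05. In smoked against control Nrf2-/- sperm 143 (5.29%) had such a p, and 1 region was called (0.00637% of all regions). That region lies 15841 bp from the start of Tspan17, which encodes a tetraspanin (54805218 to 54805502). It had 0.766% ± 0.942 (n = 7) in control and 6.61% ± 2.52 (n = 4) in smoked Nrf2-/- sperm, and the groups did not overlap (difference 5.85 points, SE 0.873, limma adjusted p = 0.00239, between 8.47e-05 and 0.959 over the alternatives). The call was lost without column 3 of smoked Nrf2-/- sperm (limma adjusted p = 0.0672). For a smoke change that differed between genotypes limma called 0 of 2702 sperm regions (0.0% of all regions), and 106 (3.92%) had an unadjusted p under 0.05. The share of all regions with such a p was not counted.

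By size alone, with no test, a region was a DMR when at least 33.3% of its cytosines and its mean changed by more than 5 points. On chromosome 13 this gave 173 DMRs in control Nrf2-/- against control WT sperm (62 higher, 111 lower; 6.4% against 5.1% of all regions) and 171 with CS (87 higher, 84 lower; 6.33% against 5.35%). The smoke comparisons gave 74 (2.74% against 2.61%) in WT and 106 (3.92% against 3.73%) in Nrf2-/- sperm.

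In F1 brain, 1 of 3361 regions was called in sons of control Nrf2-/- against control WT sires (0.0124% of all regions), and it lay in the block. It is the intergenic region 107713199 to 107713355 printed above, 25802 bp from the start of 1700006H21Rik. Sons of control WT sires had 86.5% ± 1.89 (n = 8; lowest 83.5%, median 86.4%, highest 89.3%) and sons of control Nrf2-/- sires 76.5% ± 4.25 (n = 8; 71.9%, 75.9% and 85.9%). The groups overlapped through 1 library. The difference was -10.02 points (SE 1.43, limma adjusted p = 0.00105, between 1.97e-06 and 0.0877 over the alternatives), and the call was lost with these groups fitted alone. Sons of smoked sires differed there by -3.69 points (limma adjusted p = 0.256). Of its 5 cytosines, the one at 107713222, which was switched in sperm, carried the change, with 90.8% in sons of control WT, 91.2% of smoked WT, 46.5% of control Nrf2-/- and 79.1% of smoked Nrf2-/- sires.

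In sons of smoked Nrf2-/- against smoked WT sires 3 regions were called (0.0803% of all regions), all lower and all outside the block. Leaving out 1 library at a time gave between 1 and 46 calls, with 46 reached without column 8 of smoked WT sires. The chromosome's share of 0.0893% was near that background. Mean levels over all the chromosome's scored cytosines also differed between libraries. Column 8 of smoked WT sires had 33.4%, and the others of that group 37.91% to 40.16%. Columns 2, 4, 5 and 6 of smoked Nrf2-/- sires had 33.98%, 34.45%, 35.27% and 36.46%, and the others of that group 37.79% to 38.51%. What these levels add to the differences of single regions was not tested. In the coding exon of Zfp169, a KRAB zinc finger gene (48490386 to 48490593, printed above), sons of smoked WT sires had 82.8% ± 2.29 (n = 7; lowest 80%, highest 86.6%) and sons of smoked Nrf2-/- sires 73.0% ± 3.94 (n = 8; 66.4% to 77.7%), with no overlap. The difference was -9.79 points (SE 1.53, limma adjusted p = 0.00517, between 0.00239 and 0.184 over the alternatives). The largest falls of single cytosines lay at the right end as printed. There the last cytosine had 50.4% and 22.4% and the one before it 58.8% and 33.7%. The first 3 stood between 96.3% and 99.6% in both groups. Sons of control Nrf2-/- sires had 82.7% ± 2.74 (n = 8), so the same region was the only one called on the chromosome between smoked and control Nrf2-/- sires (-9.70 points, SE 1.48, limma adjusted p = 0.0334, between 0.0101 and 0.168 over the alternatives, 0.00124% of all regions called). That call was lost on the logit scale, with trended robust variances and with the groups alone, and it held without 1 library in 8 of 16 cases, and the difference between sons of control sires was 1.71 points (limma adjusted p = 0.736).

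The other 2 regions lay near Syk and in Fam50b. Between genes, 107228 bp from the start of Syk, the gene of a tyrosine kinase of immune signalling (52690401 to 52690581), sons of smoked WT sires ranged from 17.3% to 88.5% (60.4% ± 21.1, n = 8) and sons of smoked Nrf2-/- sires from 4.74% to 38.3% (20.99% ± 11.5, n = 8). These groups overlapped (-39.4 points, SE 7.42, limma adjusted p = 0.0357, between 0.00104 and 0.237 over the alternatives). In a coding exon of the retrogene Fam50b (34747161 to 34747411) the means were 94.1% ± 1.97 and 87.3% ± 3.66 (-6.79 points, SE 1.25, limma adjusted p = 0.0277, between 0.00278 and 0.237). Without 1 library these calls held in 7 and 8 of 16 cases. Between sons of smoked and control WT sires limma called 0 of 3361 regions (0.00124% of all regions), and 123 (3.66%) had an unadjusted p under 0.05. For a difference of the smoke changes limma called 0 of 3361 (0.0% of all regions), and 285 (8.48%) had an unadjusted p under 0.05. By genotype, 262 (7.8%) had such a p in sons of control and 442 (13.2%) in sons of smoked sires. Between smoked and control Nrf2-/- sires 327 (9.73%) did. The share of all brain regions with such a p was not counted.

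Brain groups did not overlap at 2 of 3361 regions (0.0595%, beside 0.0828% of all regions) in sons of control sires and at 8 (0.238%, beside 0.232%) in sons of smoked sires, shares near or below the background. By size, 254 brain regions were DMRs in sons of control sires (175 higher, 79 lower; 7.56% against 7.53% of all regions) and 533 in sons of smoked sires (20 higher, 513 lower; 15.9% against 17.5%). The smoke comparisons gave 246 (7.32% against 8.33%) in sons of WT and 501 (14.9% against 16%) in sons of Nrf2-/- sires. The 15 regions named in sperm each had a brain region that shared a cytosine, and none of these passed the test in either genotype comparison. The Iqgap2 intron had 77.1% ± 5.63 in sons of control WT and 78.5% ± 4.54 of control Nrf2-/- sires (1.43 points, SE 2.38, limma adjusted p = 0.873), and 78.4% ± 4.69 and 77.1% ± 4.40 in sons of smoked sires (-1.30 points, limma adjusted p = 0.815). The 2210408I21Rik intron was higher in Nrf2-/- sperm. In brain it had 52.1% in sons of control WT and 58.3% of control Nrf2-/- sires (6.23 points, limma adjusted p = 0.743). In sons of smoked WT and smoked Nrf2-/- sires it had 59.9% and 39.7% (-20.2 points, SE 5.80, limma adjusted p = 0.148). The regions with a switched cytosine had lower means in sons of control Nrf2-/- sires without passing the test, such as the one near Crhbp at 88.2% and 74.8% (-13.3 points, SE 3.42, limma adjusted p = 0.586).

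Single cytosines that were switched in sperm were lower in the mean in brain too, with libraries of Nrf2-/- sires at different levels. Of the 29 cytosines switched to the lower level in sperm, 27 could be tested in brain, in a limma fit over all 1390836 cytosines that was chosen after seeing the data. All 27 were lower in sons of Nrf2-/- sires in both comparisons, with a median difference of -32.8 points in sons of control and -17.6 points in sons of smoked sires, and 25 and 11 of them had an unadjusted p under 0.05, beside 5.28% and 6.96% of all cytosines. Only 1 passed the test, 107713222 in sons of control sires (-44.2 points, SE 6.91, limma adjusted p = 0.0272), beside 0.00216% of all cytosines in that comparison and 0.00417% in sons of smoked sires. In sons of smoked sires 0 of the 27 were called, while 2 other cytosines of the chromosome were called, both outside the block. At 55426150 the means were 94.2% and 67.0% (limma adjusted p = 0.0158), and at 114636990 they were 53.2% and 29.7% (limma adjusted p = 0.0484).

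The spread within groups was wide. Over the 29 cytosines, the 16 libraries of WT sires had means between 65.3% and 73.1% (median 68.7%). A mean rests on the cytosines that the library read, 23 to 29 of them over all 32 libraries. The 8 libraries of control Nrf2-/- sires, by column, had 23.2%, 22.3%, 66.3%, 20.8%, 43.4%, 68.8%, 21.3% and 23.0%. Those of smoked Nrf2-/- sires had 65.8%, 66.7%, 62.0%, 25.8%, 69.4%, 69.4%, 27.3% and 26.1%. Group means and SDs were thus 67.6% ± 1.54 and 36.1% ± 20.8 in sons of control WT and Nrf2-/- sires, and 69.9% ± 1.74 and 51.6% ± 21 in sons of smoked sires (n = 8 each). In all, 6 of 8 libraries of control and 4 of 8 of smoked Nrf2-/- sires lay under the lowest library of WT sires. Over the 20 cytosines read in all 32 libraries, where WT sires had 62.3% to 67.7%, these counts were 7 of 8 and 6 of 8. The same 16 libraries were all low at the 9 cytosines of chromosome 2 that were switched to the lower level in Nrf2-/- sperm, with 23.2% to 35.9% against 72.1% to 80.8% in sons of WT sires. Chromosome 2 carries Nfe2l2.

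**Figure D3:**
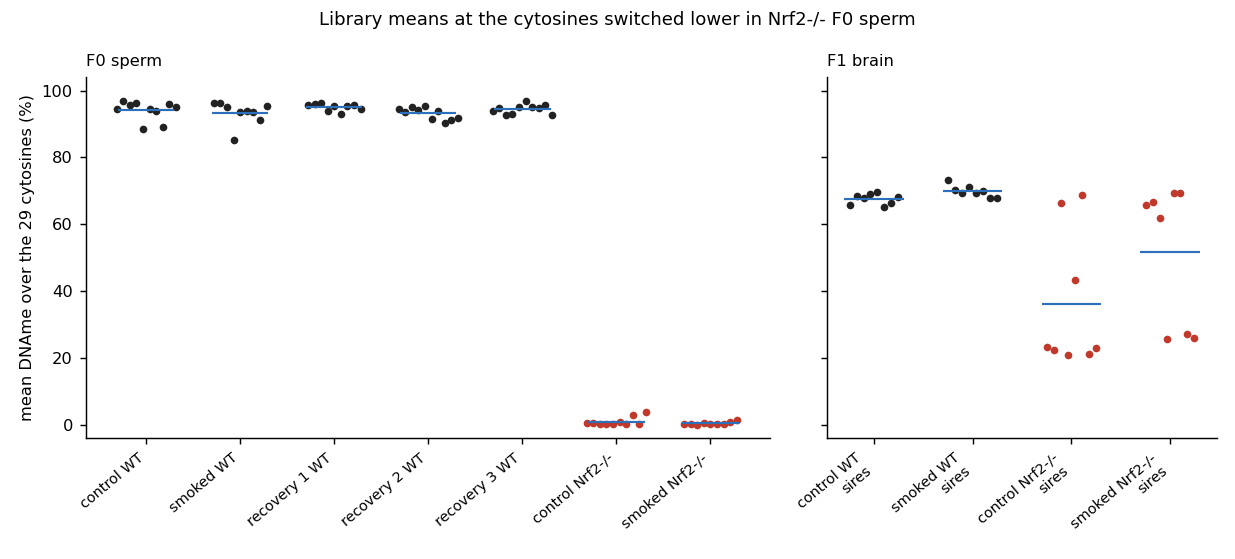
Mean DNAme in percent of each library at the 29 chromosome 13 cytosines that were switched to the lower level in Nrf2-/- F0 sperm, for the 7 F0 sperm and 4 F1 brain groups, with a line at each group mean. Sperm libraries stand above 85.3% (WT) or below 3.86% (Nrf2-/-), while brain libraries of Nrf2-/- sires spread from 20.8% to 69.4%.

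The brain values changed along the block within some libraries. At 93850402, in the Arsb intron, libraries of WT sires had 82% to 93.5%. Those of control Nrf2-/- sires had 0.73%, 0%, 87.6%, 0.549%, 85.9%, 86.9%, 0% and 0%, and those of smoked Nrf2-/- sires 85.6%, 85.5%, 85.4%, 0%, 86.6%, 89.7%, 0.645% and 1.01%. Each library was thus either near 0 or near the WT level, with none between.

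Further along, at 95451341 near Crhbp, libraries of WT sires had 89.2% to 96.1%. Those of control Nrf2-/- sires had 50.3%, 49.7%, 94.2%, 54.5%, 45.8%, 92.6%, 46.6% and 50.2%, and those of smoked Nrf2-/- sires 95.9%, 96.7%, 93.7%, 38.3%, 92.3%, 92.6%, 47.8% and 51.3%. Here the low libraries stood near the middle of the scale, and column 5 of control Nrf2-/- sires, which was at the WT level in the Arsb intron, was among them.

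At 102980940, in the Mast4 intron, libraries of WT sires had 54.6% to 77.8%. Those of control Nrf2-/- sires had 0%, 0%, 0%, 0%, 0%, 65.2%, 1.33% and 0%, and those of smoked Nrf2-/- sires 0%, 0%, 0%, 0%, 76.1%, 66.7%, 0% and 0%. At this cytosine only column 6 of control and columns 5 and 6 of smoked Nrf2-/- sires were at the WT level.

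At 107713222, in the called brain region, libraries of WT sires had 84.4% to 94.9%. Those of control Nrf2-/- sires had 43.1%, 32.8%, 95.3%, 30.8%, 39.1%, 45.3%, 38.5% and 47.6%, and those of smoked Nrf2-/- sires 95.3%, 89.0%, 80.8%, 50.8%, 89.1%, 92.5%, 85.7% and 49.4%. Column 7 of smoked Nrf2-/- sires, low at the other 3 cytosines, was at the WT level here, and column 6 of control Nrf2-/- sires was low here and at none of those 3.

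Over 4 successive segments of the block, set after seeing the data, with 8, 5, 4 and 3 cytosines read in all 32 libraries, libraries changed level between segments. Libraries of WT sires had means of 59.7% to 66.4% from 75741887 to 93850402, 58.1% to 68.1% from 95409536 to 97082791, 40.7% to 63.6% from 98997215 to 102980940, and 91.1% to 96.1% from 103459306 to 107713222. Column 5 of control Nrf2-/- sires had 62.3% in the first segment, within the WT range, and then 21.5%, 26.1% and 44%, below it. Column 3 of control Nrf2-/- sires had 63.9% and 67.5% in the first segments, 13.9% in the third and 93.8% in the last. Columns 1, 2 and 3 of smoked Nrf2-/- sires showed the same course, with 12.4%, 17% and 13.9% in the third segment and 94.9%, 93.8% and 90% in the last. Columns 5 and 6 of smoked Nrf2-/- sires were at or near the WT range throughout.

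**Figure D4:**
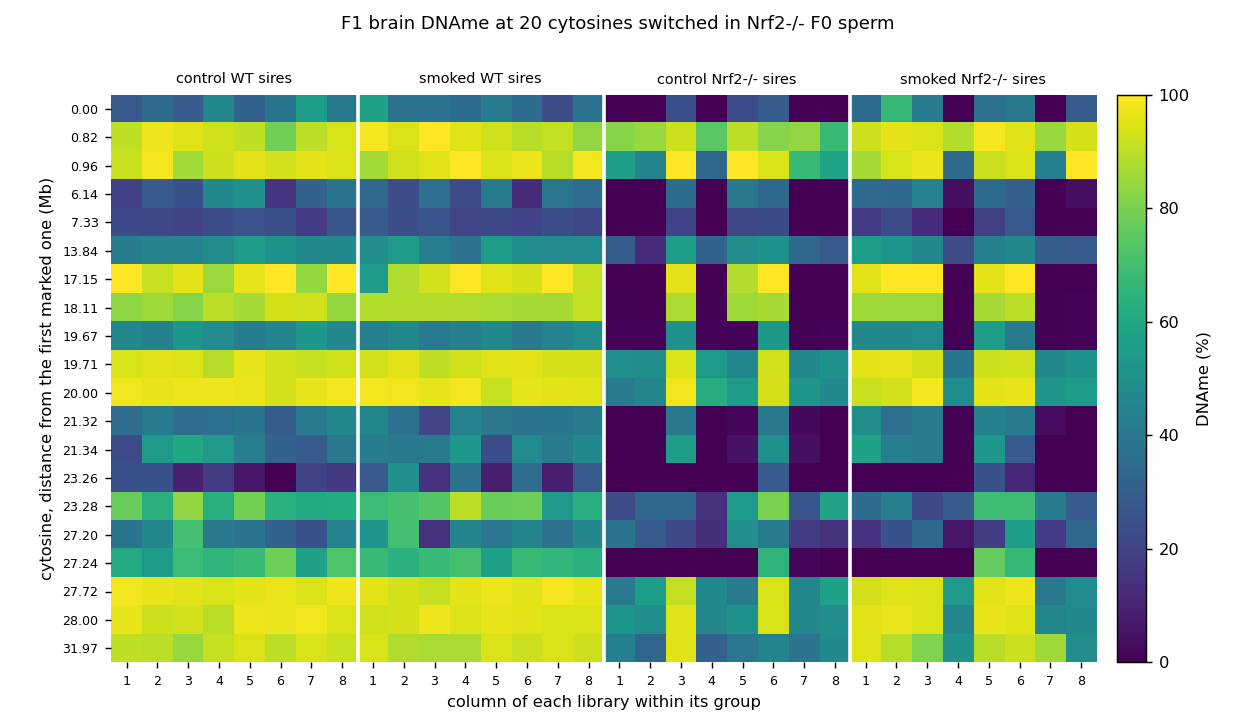
Heat map of DNAme in percent at the 20 switched cytosines read in all 32 F1 brain libraries (rows, in order along the block as distance in Mb from the first marked cytosine), with a column for each library of WT and of Nrf2-/- sires. Libraries of Nrf2-/- sires change between low values and the WT level within the block, as column 5 of control Nrf2-/- sires does between the first segment (62.3%) and the second (21.5%).

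Of the 80 positions that were read in Nrf2-/- sperm alone, 55 were read in no brain library of WT sires. These 55 followed the same libraries, although they did not enter the means above. Others of the 80 did not, as 19 were read in all 16 libraries of WT sires. All 16 libraries of Nrf2-/- sires read 18 of the 80. The libraries of control Nrf2-/- sires read 54, 54, 13, 52, 33, 0, 53 and 54 of the 55, and those of smoked Nrf2-/- sires 13, 13, 13, 52, 0, 0, 54 and 44. Columns that read 0 were those with WT levels in the first 3 segments. Column 5 of control Nrf2-/- sires read 0 of the 22 positions of the first segment and all 13, 13 and 7 of the later ones, and columns reading 13 had 8 of 13 in the third segment and 5 of 7 in the last. Of the 229 positions missing from Nrf2-/- sperm, 194 were read in all 16 libraries of WT sires and 88 in all 16 of Nrf2-/- sires, and each was read in at least 1 library of Nrf2-/- sires.

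The smoke comparison of these sons rests on libraries at such different levels. At 26 of the 27 cytosines the mean was higher in sons of smoked than of control Nrf2-/- sires, with a median difference of 15.6 points. By limma 0 were called, and 9 had an unadjusted p under 0.05 (5.73% of all cytosines did). Here too the 27 are not independent observations. Between smoked and control WT sires the median difference was 0.564 points.

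The mean over the whole chromosome was compared last. Relative to the other autosomes, chromosome 13 was higher by 2.61 points ± 0.236 (n = 10) in control WT and 2.64 points ± 0.212 (n = 10) in control Nrf2-/- sperm. The smoke change was 0.0225 points in WT sperm (exact permutation p = 0.805, two-sided) and 0.0236 points in Nrf2-/- sperm (exact permutation p = 0.79). With cytosines limited to those read in each library, the smoke change in WT sperm was -0.0778 points (exact permutation p = 0.176), and control Nrf2-/- sperm differed from control WT by -0.105 points, against 0.0237 points over all cytosines. In brain the genotype difference was -0.0671 points in sons of control sires (exact permutation p = 0.194, adjusted over 6 comparisons 0.581) and -0.0171 points in sons of smoked sires (exact permutation p = 0.861). The largest shift was 0.139 points between smoked and control Nrf2-/- sires (2.68 ± 0.164 against 2.54 ± 0.0999, n = 8 each, exact permutation p = 0.0653, adjusted 0.392), which failed the adjustment. It is a rise relative to the other autosomes only. The chromosome's own mean ran from 33.98% to 38.51% in libraries of smoked Nrf2-/- sires. In those of control Nrf2-/- sires it ran from 37.5% to 39.07%.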

How the data were processed

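RRBS libraries had been made from DNA cut with MspI and TaqαI. The authors aligned reads to mm10 with Bismark (version not given in the sources used here) and deposited, for each of 13 groups, methylation percent per CpG cytosine and library, each strand apart; 112 columns of values were used and 0 were not. Whether a read minimum was applied before deposit is not given in the sources used here.

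Cytosines with a value in 4 or more libraries of each group in a tissue were scored. A library's region value was its mean percent, adjusted for which cytosines it had (at least 50%). Adjusted values can fall slightly below 0. limma 3.58.1 (R 4.3.3) fitted all groups of a tissue over all its regions, with Benjamini-Hochberg adjustment and calls at 0.05. The fit was tested on simulated data. Relative chromosome means were compared by two-sided exact permutation tests. Annotation was GENCODE vM21 on GRCm38. Tables and figures used Python 3.11.15 with pandas 2.3.3, scipy 1.17.1 and matplotlib 3.10.9.

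Named regions were up to 15 called in both sperm genotype comparisons by size, up to 10 called in brain, up to 5 per smoke comparison, and the brain regions that share a cytosine with the first set. The members, lists and tests were chosen with earlier results of these data known. Alternatives were a logit scale, trended robust variances, the compared groups alone, a 300 bp joining distance, at least 6 libraries, 80% of cytosines, a 10 point DMR limit, no length limit, and each library left out.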

Additional observations from a re-analysis of the deposited data

Results flagged for a closer look

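Among the groups of the named regions, 7 had a lowest or highest library whose gap to the next exceeded Dixon's limit, of 80 groups tested, where chance gives about 1 in 20. In smoked Nrf2-/- sperm, column 7 had 57.9% near Aggf1 (95409511 to 95409626; next library 61%, other end 63.9%) and 72.7% in the Mctp1 intron (76699193 to 76699315; next 79%, other end 83.8%), and column 3 had 55% in the Arhgef28 intron (98024707 to 98024857; next 71.6%, other end 84.5%). In smoked WT sperm, column 2 had 37.1% near Ccnh (85112976 to 85113038; next 43.5%, other end 49.6%). In control Nrf2-/- sperm, column 1 had 89% near Arrdc3 (80394431 to 80394496; next 94.5%, other end 100%), and column 2 had 61.2% near Mast4 (103459262 to 103459375; next 67.9%, other end 73.9%). In brain of sons of control Nrf2-/- sires, column 3 had 85.9% in the called region 107713199 to 107713355, where the next library had 77.4% and the lowest 71.9%. It is the library that read the switched cytosine of that region at 95.3%.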

How the results depend on the processing

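No paired analysis was possible because the table columns carry no replicate numbers of the labels. Depth behind a percent is unknown, which limits how far a single percent can be read. Regions called in control sperm by genotype became 63 with 300 bp joining. In smoked sperm they became 13 with the compared groups alone, 47 with 300 bp joining and 16 without switched cytosines. The call between smoked and control Nrf2-/- sperm became 0 on the logit scale, with the groups alone, with 300 bp joining, with at least 6 libraries and with 80% of cytosines. In brain, sons of control sires by genotype gave 0 with the groups alone and 2 with 300 bp joining, sons of smoked sires gave 0 with the groups alone, and smoked against control Nrf2-/- sires gave 0 on the logit scale, with trended robust variances and with the groups alone. With 1 library left out, calls ranged from 0 to 1 for smoked against control Nrf2-/- sperm, from 1 to 3 by genotype in sons of control sires, from 1 to 46 by genotype in sons of smoked sires and from 0 to 2 for smoked against control Nrf2-/- sires. The 46 came without column 8 of smoked WT sires, 12 without column 8 and 7 without column 1 of smoked Nrf2-/- sires, and 1 without any of columns 1, 3, 4 and 7 of smoked WT or 2, 4 and 6 of smoked Nrf2-/- sires. By genotype in sons of control sires, 3 came without column 6 and 2 without column 3 of control Nrf2-/- sires. For smoked against control Nrf2-/- sires, 2 came without column 3 of control Nrf2-/- sires, and 0 without any of its columns 1, 2, 6, 7 and 8 or of columns 2, 4 and 6 of smoked Nrf2-/- sires. The cause was not tested.

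DMRs by size are given in the order of sperm genotype without and with CS, sperm smoke in WT and Nrf2-/-, brain genotype without and with CS, and brain smoke in WT and Nrf2-/- sires. A limit of 10 points gave 53, 48, 14, 14, 34, 212, 44 and 181, joining at 300 bp 377, 362, 192, 264, 469, 842, 437 and 796, and no length limit 373, 371, 204, 289, 455, 800, 451 and 761. At least 6 libraries gave 69 for sperm smoke in Nrf2-/-. Without switched cytosines 3 regions turned direction, without and with CS, to 0.239 and 0.846 points (Hapln1), 0.958 and 2.41 (Arsb), and 0.183 and 1.13 (Srek1), and none was called. Of other settings for single named regions, 275 kept direction and side of the threshold and 24 lost the call, and with 1 library left out 630 kept it and 39 lost it. No setting changed the side of the threshold for the relative chromosome mean, though its sign turned to negative in the 4 sperm comparisons with cytosines limited to those read in each library. With 1 library left out, the differences of these 4 comparisons also ranged across 0, such as -0.0231 to 0.0576 points for smoke in WT sperm. So did the genotype difference in sons of smoked sires (-0.0504 to 0.0501 points).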
